A study of Mus musculus with 12 samples.

Results

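Liver transcripts of mice that received an adenovirus against the mouse long noncoding RNA mGULL together with one expressing its human counterpart hGULL (the group Ad-shmGULL+hGULL, the rescue) were compared with those of mice that received the knockdown adenovirus together with an empty one (Ad-shmGULL). The comparison used 8 of the 12 livers sequenced, 4 in each of these groups, and the 16537 of 55385 features in the table whose mean over the 8 mice reached 1 TPM (a transcript level scaled for gene length and for the total of the library). Both groups carried the short hairpin RNA, so the difference between them is the hGULL virus in place of the empty pAdV5 vector. The other 4 mice (Ad-Ctrl) carried the Lac control virus with pAdV5 and are given here as background levels. They were also part of the fitted model, so they enter the estimate of spread behind each SE and model P value. All were male C57BL/6 mice 7 weeks old, each group received a total of 500000000 active viral particles, and the livers were taken 7 days later. The route is given as intravitreal in one place and as retro-orbital in another, and the sources used here do not say which hairpin the virus carried. The labels number 4 liver samples per group without saying that each is a separate mouse; each is called a mouse here, and P values measure the spread between these samples.

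GULL is a long noncoding RNA described in human and mouse liver in connection with glucose and lipid metabolism. By scanning hGULL in vitro, the study mapped its binding to CRTC2, a coactivator of the transcription factor CREB, to a 30-base part named hGULF. The rescue design asks whether the human RNA can move liver gene expression that depends on the mouse RNA, although the primary sequences of the 2 RNAs differ. Adenoviruses also bring viral DNA and RNA into liver cells, where interferons and their target genes form the main antiviral response. Interferons act through transcription factors that bind GAS and ISRE elements in promoters of guanylate-binding proteins, immunity-related GTPases and other antiviral genes.

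The sequences below set the hairpins listed for mGULL beside hGULL, the RNA of the rescue. The 4 hairpin sense arms listed for mGULL are each 21 bases long, and each was found without a mismatch in mGULL as rebuilt from its tiled antisense probes (2278 bases). Capitals mark the longest run that each arm shares with hGULL on the same strand, which was 6, 9, 8 and 7 bases for si1 to si4.

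mGULL si1: ggcttggaatatAGAGTTatc

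mGULL si2: acaatGAGATGCAAtttaaac

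mGULL si3: GCTCATGAcatttgatcttca

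mGULL si4: GCCCAGCactcactatgtatg

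None of the 4 arms therefore has a full match in hGULL, which was rebuilt in the same way and is 765 bases long. The longest run that hGULL shares with mGULL on the same strand is 12 bases. The first 165 bases of hGULL are shown with hGULF, bases 136 to 165, in capitals.

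hGULL 1 to 165: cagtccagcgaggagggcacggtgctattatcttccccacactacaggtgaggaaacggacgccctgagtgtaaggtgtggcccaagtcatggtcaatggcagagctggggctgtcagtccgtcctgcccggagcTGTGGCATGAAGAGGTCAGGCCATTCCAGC

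The levels of mGULL and hGULL themselves were not analysed here. Of the genes next to mGULL, Osgin1, an oxidative stress-induced growth inhibitor, measured 102, 157, 145 and 142 TPM in Ad-shmGULL replicates 1 to 4 and 143, 170.0, 187 and 192 TPM in Ad-shmGULL+hGULL replicates 1 to 4. The groups overlapped, and the log2(TPM + 1) difference of 0.35 ± 0.13 (rescue minus knockdown ± SE) was below the fold required here. Mlycd, which encodes malonyl-CoA decarboxylase, differed by -0.18 ± 0.11 and Hsbp1, which encodes a heat shock factor binding protein, by 0.06 ± 0.09.

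The livers were compared as whole tissue, in which fewer cells of a type and less RNA per cell cannot be told apart. The 10 hepatocyte markers summed to 86870.2 to 104459.9 TPM in Ad-shmGULL and 76469 to 91989.7 TPM in Ad-shmGULL+hGULL, so both groups had the defining transcripts of the labelled tissue. TPM are scaled to a fixed total, so they hold no read depth. One library stood apart: in Ad-shmGULL replicate 1, protein-coding genes took 77.3% of all TPM, against 84.2% to 85.2% in the other 7 mice of the comparison, and the 20 most abundant features took 34.2%, against 24.6% to 28.9%. Each mouse was left out in turn, and a named gene whose call changed is given with its difference without that mouse (knockdown mouse 1 is then Ad-shmGULL replicate 1, rescue mouse 1 is Ad-shmGULL+hGULL replicate 1, and so on). Of the 78 counted genes named here, 35 were counted whichever mouse was left out and 43 were not.

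hGULL coexpression was accompanied by more transcripts that were higher than transcripts that were lower. A gene was counted when its log2(TPM + 1) values differed by more than 0.5, higher or lower, and limma gave it an unadjusted P under 0.05. Limma fits a linear model with moderated variances to all genes. By this rule 490 of the 16537 genes (2.96%) were counted, 378 higher (2.29%) and 112 lower (0.677%) in the rescue. At an unadjusted P under 0.05 alone, 1756 genes (10.6%) were found, but after Benjamini-Hochberg adjustment in limma 0 genes (0.0%) had an adjusted p under 0.05. The smallest adjusted p was 0.118. No gene named below therefore passed a false discovery threshold, and the counts are to be read against these shares. In 880 genes (5.32%) all 4 rescue mice lay above all 4 knockdown mice, and in 163 (0.986%) all lay below. The median difference of all tested genes was 0.09, and 70.7% of genes had a positive difference. The split between higher and lower moved with the scaling of the libraries: it was 243 to 166 with median-of-ratios scaling, 236 to 199 with quantile normalization and 292 to 161 after rescaling without the 20 most abundant genes. Without Ad-shmGULL replicate 1 there were 362 genes, 247 higher and 115 lower, of which 248 were among the 490. Without Ad-shmGULL replicate 2 there were 852.

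**Figure D1:**
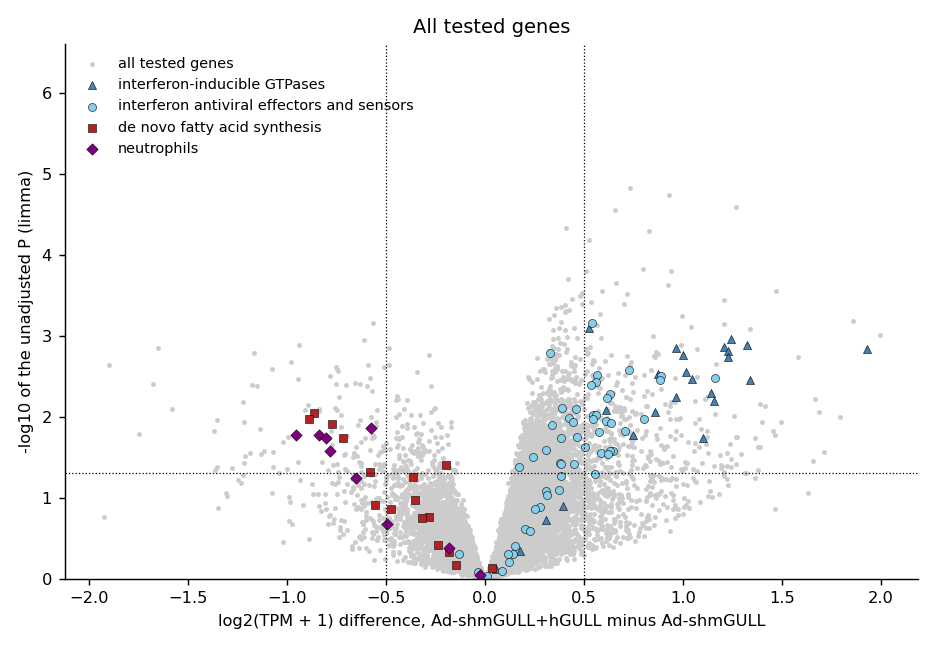
Each grey point is 1 of the 16537 tested genes, with its log2(TPM + 1) difference (rescue minus knockdown) on the x axis and -log10 of the unadjusted value from limma's test on the y axis. Dotted lines mark the thresholds. Interferon-inducible GTPases lie to the right, up to 1.93, and fatty acid synthesis and neutrophil genes to the left, down to -0.89 and -0.95.

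Of the gene lists examined, the interferon-inducible GTPases had the largest median difference. These are the guanylate-binding proteins (Gbp) and immunity-related GTPases (Irg), which coat and disrupt the vacuoles of intracellular pathogens. Of the 26 genes listed 24 were tested, all 24 had a positive difference, and 20 (83.3%) were counted as higher and 0 as lower. The 4 rescue mice lay above the 4 knockdown mice in 20 of them. The median difference was 1.01, against 0.09 over all genes.

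Igtp, which encodes the GTPase Irgm3, measured 69.6, 253, 297 and 185 TPM in the 4 Ad-shmGULL mice (replicates 1 to 4, the order used throughout) and 527, 412, 475 and 392 TPM in the 4 Ad-shmGULL+hGULL mice. The groups did not overlap, and the lowest value was that of Ad-shmGULL replicate 1. Its mean was 201 ± 99.03 TPM (SD, 4 mice) in the knockdown and 452 ± 61.3 TPM in the rescue, a 2.25-fold difference of the means. The log2 difference was 1.34 ± 0.37 (SE; adjusted p = 0.321 in limma), and an exact two-sided permutation test gave p = 0.0286, the smallest that 4 mice against 4 allow. Genes with the largest differences were picked among those with separate groups, and any gene with separate groups gives this p. It is therefore no evidence beyond the separation itself. In the 4 Ad-Ctrl mice Igtp ranged from 269.9 to 618 TPM, which overlaps the rescue and also takes in Ad-shmGULL replicate 3 (297 TPM).

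Iigp1, an effector Irg protein of hepatocytes and macrophages and the most abundant member, measured 181, 471, 502 and 395 TPM in the knockdown and 997, 761, 971 and 695 TPM in the rescue. Again no knockdown mouse reached the lowest rescue mouse, and the difference was 1.23 ± 0.31. Tgtp1 had the largest difference of the list: 2.49, 19.1, 18.8 and 14.4 TPM against 55.03, 38.7, 47.4 and 40.9 TPM, or 1.93 ± 0.48. Tgtp1 and its neighbor Tgtp2 (1.33 ± 0.32) are near-identical copies, and how shared reads were counted is not given in the sources used here, so their separate values are uncertain. Ifi47, another Irg gene, measured 22.6, 52.7, 57.9 and 44.6 TPM against 109, 81.9, 117 and 98.3 TPM, a difference of 1.24 ± 0.29. Among the Irgm regulators, named after their values were seen, Irgm1 differed by 1.02 ± 0.27 and Irgm2 by 1.04 ± 0.29.

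Among the guanylate-binding proteins, Gbp2 measured 19.5, 42.4, 57.6 and 35.9 TPM in the knockdown and 97.8, 74.1, 96.7 and 74.9 TPM in the rescue, a difference of 1.21 ± 0.30. Gbp7 measured 13.1, 36.8, 38.8 and 25.9 TPM against 71.96, 56.1, 71.7 and 56.3 TPM, a difference of 1.23 ± 0.31. For both genes the highest knockdown mouse stayed below the lowest rescue mouse. Gbp10 differed by 1.16 ± 0.35 with separate groups, and it lies in a cluster of similar copies. Gm4951 had the smallest P of the list, with a difference of 0.52 ± 0.12 (adjusted p = 0.306 in limma). The 4 members not counted had positive differences between 0.06 and 0.39, the last that of Gbp8 (6.64, 19.3, 13.7 and 14.7 TPM against 16.9, 17.8, 18.97 and 14.9 TPM), whose groups overlapped. BC023105, an annotated processed pseudogene outside the list, had the largest positive difference of all tested genes, at 1.99 ± 0.47: 26.8, 85.9, 167 and 88.5 TPM against 379, 249, 381 and 251 TPM. Without 1 mouse, the call was lost by Gm4951 (0.43 without knockdown mouse 1 and 0.49 without rescue mouse 1) and made for Gbp8 (0.58 without knockdown mouse 2).

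Summed over the list, the GTPases reached 627, 1518, 1651 and 1298 TPM in the 4 knockdown mice and 2909, 2306, 2811 and 2258 TPM in the 4 rescue mice. The mean was 1274 ± 455 TPM (SD, 4 mice) in the knockdown and 2571 ± 337 TPM in the rescue, with no overlap, and the 4 Ad-Ctrl mice ranged from 1699.7 to 3632 TPM. Without Ad-shmGULL replicate 1, which had the lowest sum, 17 of 24 members were still counted and the median difference was 0.70. In that setting the difference was 0.90 for Igtp, 1.33 for Tgtp1, 0.90 for Iigp1, 0.92 for Gbp2 and 0.69 for Irgm2. Over all alternatives 17 to 21 members were counted, all higher.

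**Figure D2:**
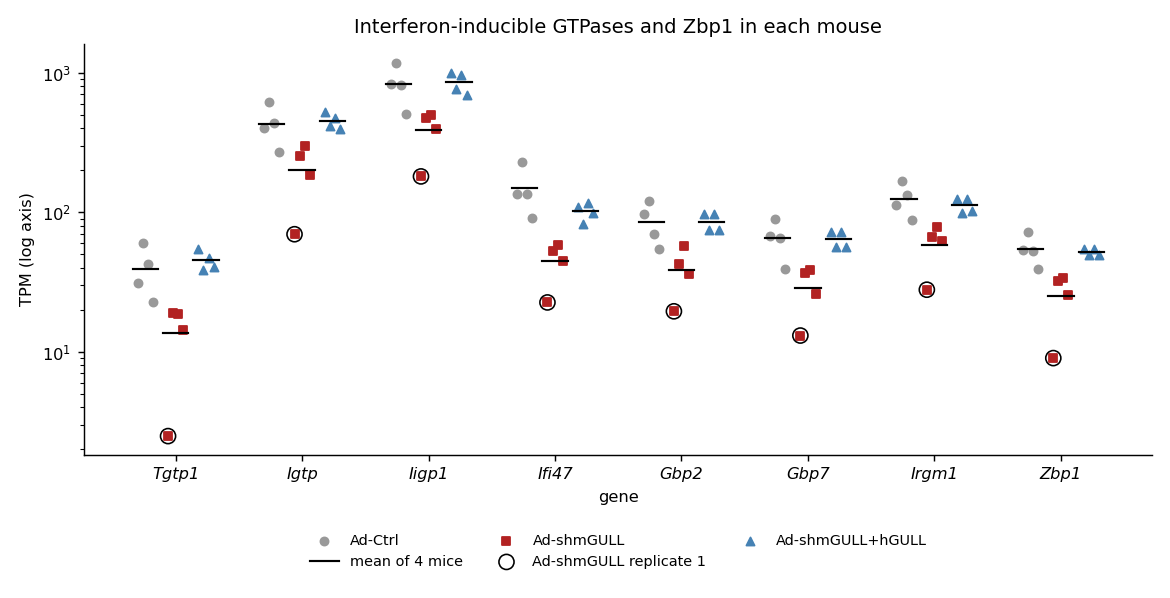
TPM on a log axis for 7 interferon-inducible GTPases and the nucleic acid sensor Zbp1 in each of the 12 mice, with horizontal bars at the mean of 4 mice and Ad-shmGULL replicate 1 circled. For each gene the 4 rescue mice lie above the 4 knockdown mice, and the circled mouse is the lowest.

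The promoters of these genes are shown because their levels differed together and because the elements through which interferon acts on them are known. RefSeq start sites of GRCm38.p6 were found for 15 of the 24 tested members, with 16 promoters of 300 bases around the start. The ISRE core, searched as GAAA, any 2 bases and GAAA on both strands, occurred in 12 of the 16 promoters (75.0%), against 3.44% of all 32851 promoters in the table. The GAS motif TTCNNNGAA, which reads the same on both strands, occurred in 8 of the 16 (50.0%), against 8.3% of all promoters. Among promoters of tested genes the shares were 3.22% for the ISRE core and 6.94% for GAS. Matches of the 2 motifs may overlap. The list was made of genes known to respond to interferon, so high shares follow from its choice and say nothing about hGULL. Of the genes counted as higher, Ifi47 had neither motif in this window.

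Capitals mark the ISRE core and GAS matches in 4 promoters, printed 5′ to 3′ on the strand of the gene. Those of Igtp (chr11:58199306-58199605, plus strand) and Tgtp1 (chr11:48992197-48992496, minus strand) lie in the Irg clusters on chromosome 11. Those of Gbp2 (chr3:142620413-142620712, plus strand) and Gbp7 (chr3:142530086-142530385, plus strand) lie in the Gbp cluster on chromosome 3.

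Igtp: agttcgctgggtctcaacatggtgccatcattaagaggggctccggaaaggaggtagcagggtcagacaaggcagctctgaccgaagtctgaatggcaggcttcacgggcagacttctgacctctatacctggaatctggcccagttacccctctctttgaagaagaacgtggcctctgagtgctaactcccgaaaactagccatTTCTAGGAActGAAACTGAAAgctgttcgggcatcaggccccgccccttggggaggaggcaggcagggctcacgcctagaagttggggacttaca

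Tgtp1: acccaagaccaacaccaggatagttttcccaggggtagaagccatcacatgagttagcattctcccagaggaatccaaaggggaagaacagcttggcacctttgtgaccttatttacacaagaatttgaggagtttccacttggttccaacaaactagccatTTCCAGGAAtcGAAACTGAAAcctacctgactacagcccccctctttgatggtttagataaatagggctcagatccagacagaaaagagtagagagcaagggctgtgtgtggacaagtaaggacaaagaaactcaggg

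Gbp2: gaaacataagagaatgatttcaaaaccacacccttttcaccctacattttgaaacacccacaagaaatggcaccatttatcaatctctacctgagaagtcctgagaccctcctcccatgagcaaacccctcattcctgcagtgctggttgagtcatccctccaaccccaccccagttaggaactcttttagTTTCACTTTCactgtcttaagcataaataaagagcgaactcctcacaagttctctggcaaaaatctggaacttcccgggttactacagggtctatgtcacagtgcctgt

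Gbp7: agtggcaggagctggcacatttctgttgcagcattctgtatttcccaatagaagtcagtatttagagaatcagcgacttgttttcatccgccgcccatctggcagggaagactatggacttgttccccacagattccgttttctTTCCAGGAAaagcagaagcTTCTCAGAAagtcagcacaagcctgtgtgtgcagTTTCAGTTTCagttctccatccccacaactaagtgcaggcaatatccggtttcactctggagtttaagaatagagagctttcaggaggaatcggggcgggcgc

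In Igtp and Tgtp1 a GAS match and an ISRE match stand next to each other, in Gbp2 there is an ISRE match alone, and Gbp7 has 2 GAS matches and 1 ISRE match. A match in these letters is a description of the sequence and was not tested as a binding site.

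The wider set of interferon-induced antiviral effectors and sensors differed in the same direction but less. Of 54 tested members 52 had a positive difference, 23 (42.6%) were counted as higher and 0 as lower, and the median difference was 0.45. Zbp1, a sensor of Z-form nucleic acids, measured 9.02, 32.04, 33.96 and 25.5 TPM in the knockdown and 54.2, 49.2, 54.2 and 49.3 TPM in the rescue, without overlap, a difference of 1.16 ± 0.32. Of the 4 members with the smallest P, Oas1b and Oas1g, 2'-5'-oligoadenylate synthetase genes that are similar copies, differed by 0.54 ± 0.12 and 0.57 ± 0.15. Xaf1, a proapoptotic interferon target, differed by 0.73 ± 0.20 and Ifit3b, an RNA-binding antiviral protein, by 0.89 ± 0.24. All 4 had separate groups. Isg15, the ubiquitin-like modifier, differed by 0.65 ± 0.26, but its groups overlapped (31.6, 38.98, 65.9 and 34.3 TPM against 69.7, 63.6, 71.8 and 54.9 TPM). Ifit1 differed by 0.80 ± 0.27 and Irf7, the amplifier of interferon production, by 0.58 ± 0.21. This count depended on 1 mouse and on the scaling: it was 6, with a median difference of 0.31, without Ad-shmGULL replicate 1, 11 with median-of-ratios scaling and 14 with quantile normalization, all higher. ISRE matches were present in 21 of the 48 promoters found for this list (43.8%), which was likewise chosen as interferon-induced. Zbp1 differed by 0.75 without Ad-shmGULL replicate 1 and was still counted. Genes that lost the call without 1 mouse were Oas1g (0.49 without knockdown mouse 1 and 0.47 without rescue mouse 2) and Irf7 (0.35 without knockdown mouse 1 and 0.49 without rescue mouse 3). Isg15 did so as well (0.53 to 0.63 without knockdown mouse 1, 2 or 4 or rescue mouse 1 or 3).

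The interferons themselves were at the bottom of the table. Ifng ranged from 0.0781 to 0.952 TPM over the 8 mice and Ifnb1 was listed at 0 in 7 of 8, so neither was tested. Among chemokines and cytokine signalling genes, 4 of 40 tested members were counted as higher and 1 as lower. Cd274, which encodes the immune checkpoint ligand PD-L1, measured 4.94, 17.5, 15.9 and 11.05 TPM against 23.03, 20.2, 23.3 and 21.5 TPM, a difference of 0.91 ± 0.28 with separate groups. Irf1, a transcription factor that binds ISRE-type elements, differed by 0.61 ± 0.22 with separate groups, and Socs1, the feedback inhibitor of JAK kinases, by 0.65 ± 0.24 with overlapping ones. The T cell chemokine gene Cxcl9 differed by 1.01 ± 0.43 (21.95, 123, 116 and 71.2 TPM against 151, 149.9, 155 and 111 TPM). Without Ad-shmGULL replicate 1, where it was lowest, Cxcl9 differed by 0.48 and was no longer counted, as were Irf1 (0.39), Socs1 (0.49) and Il1b (-0.37), while Cd274 still was (0.56). Cxcl10, named after its values were seen, was not counted (11.9, 33.8, 37.3 and 23.4 TPM against 51.03, 31.4, 47.8 and 39.3 TPM). Il1b, an inflammatory cytokine gene, differed by -0.50 ± 0.20, with overlapping groups. The list's count of higher genes was 1 without Ad-shmGULL replicate 1, 2 without Ad-shmGULL replicate 4 or Ad-shmGULL+hGULL replicate 3, 7 without Ad-shmGULL replicate 2 and 8 without Ad-shmGULL replicate 3. Over all mice left out, the call was lost by Cxcl9 (0.48 to 1.03 without knockdown mouse 1 or 4 or rescue mouse 1, 2 or 3), Socs1 (0.49 to 0.57 without knockdown mouse 1 or 4 or rescue mouse 3) and Il1b (-0.37 to -0.48 without knockdown mouse 1 or 2 or rescue mouse 1 or 3). Cxcl10 was counted without some mice (0.75 to 0.94 without knockdown mouse 2 or 3, rescue mouse 2 or control mouse 2 or 4).

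Of 26 genes of MHC class I presentation and the immunoproteasome, 24 had a positive difference but 2 were counted. These were Tap1, the peptide transporter subunit, with 29.7, 49.8, 56.6 and 43.6 TPM in the knockdown and 74.9, 72.04, 79.2 and 65.6 TPM in the rescue (0.72 ± 0.18), and Psmb9, an immunoproteasome subunit, with a difference of 0.82 ± 0.24. Nlrc5, the transactivator of class I genes (named after its values were seen), had separate groups and a difference of 0.48 ± 0.14, just below the fold required. Of the 10 tested MHC class II genes, 6 differences were positive and 4 negative, with a median of 0.01, and 0 were counted. The class I count was 4 without Ad-shmGULL replicate 2 and 5 without Ad-shmGULL replicate 3. Nlrc5 was counted without some mice (0.50 to 0.55 without knockdown mouse 2, 3 or 4 or rescue mouse 4).

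**Figure D3:**
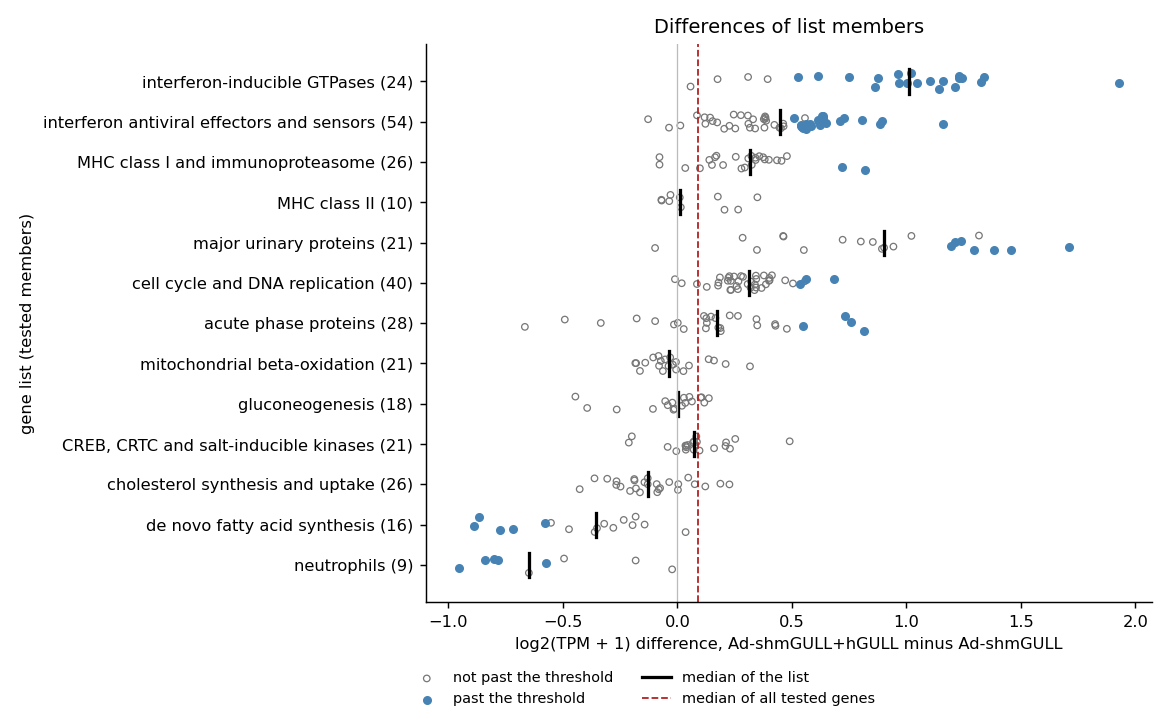
Log2(TPM + 1) differences (rescue minus knockdown, x axis) of the tested members of 13 gene lists (y axis), filled where past the threshold, with a black bar at each list's median and a dashed line at the median of all tested genes, 0.09. The list medians run from 1.01 for interferon-inducible GTPases to -0.65 for neutrophil markers.

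Markers of immune cells did not all go with the interferon genes. All 9 tested neutrophil markers were lower in the rescue, 5 of them counted, with a median of -0.65. S100a9, a subunit of calprotectin, measured 158, 70.99, 163 and 97.4 TPM in the knockdown and 53.3, 63.9, 62.3 and 79.8 TPM in the rescue, a difference of -0.84 ± 0.30. Ngp, a granule protein gene, measured 89.9, 31.95, 90.1 and 54.4 TPM against 26.9, 28.8, 30.01 and 40.7 TPM, a difference of -0.95 ± 0.35. For both genes Ad-shmGULL replicates 1 and 3 were high, replicate 2 lay within the rescue range and replicate 4 above it. Ltf, which encodes lactoferrin, differed by -0.80 ± 0.30, S100a8 by -0.78 ± 0.31 and the collagenase gene Mmp8 by -0.58 ± 0.20, the last with separate groups. The neutrophil markers summed to 401, 180.1, 421 and 249 TPM in the knockdown and 141, 164, 157 and 214 TPM in the rescue, with 160.5 to 351 TPM in Ad-Ctrl, and the defining marker Ly6g was below the expression filter. Without Ad-shmGULL replicate 1, 1 marker was counted, and without Ad-shmGULL replicate 3, 0. The markers that lost the call were S100a9 (-0.69 without knockdown mouse 1 and -0.67 without knockdown mouse 3), Ngp (-0.77 without knockdown mouse 1 and -0.77 without knockdown mouse 3) and Ltf (-0.67 without knockdown mouse 1 and -0.68 without knockdown mouse 3). S100a8 (-0.61 to -0.71 without knockdown mouse 1 or 3 or rescue mouse 1 or 3) and Mmp8 (-0.42 without knockdown mouse 3) did so too.

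Of 15 Kupffer cell and macrophage markers 0 were counted (median 0.04); Lyz2, the macrophage lysozyme gene, differed by -0.22 ± 0.08 with separate groups, below the fold required. Of 18 T and NK cell markers, 1 was counted, the granzyme gene Gzmb, with 1.69, 9.75, 7.01 and 5.59 TPM in the knockdown and 12.8, 11.6, 12.2 and 10.4 TPM in the rescue (1.03 ± 0.39). Gzmb was lowest in Ad-shmGULL replicate 1, and without that mouse it differed by 0.62 and the list's count was 0. That count was 2 without Ad-shmGULL replicate 2 or 4. The sum of the T and NK cell list ranged from 51.7 to 107 TPM in the knockdown and from 86.4 to 118 TPM in the rescue, which overlap. Of 6 B and plasma cell markers 5 were lower and 0 were counted; Cd79b, a B cell receptor subunit, differed by -0.43 ± 0.16. The B cell count was 3, all lower, with median-of-ratios scaling, quantile normalization or rescaling without the 20 highest genes, and 2 without Ad-shmGULL replicate 1. Endothelial, stellate, cholangiocyte and erythroid markers (14, 13, 5 and 5 tested) gave 0 counted genes, with medians of -0.08, -0.14, 0.24 and -0.10. Hepatocyte markers gave 0 of 10, with Ttr, the gene for the plasma carrier transthyretin, at -0.39 ± 0.18, and the 3 tested markers of adipose tissue, pancreas and muscle gave 0. The part of a shift in cell makeup in the interferon and neutrophil values was not tested.

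**Figure D4:**
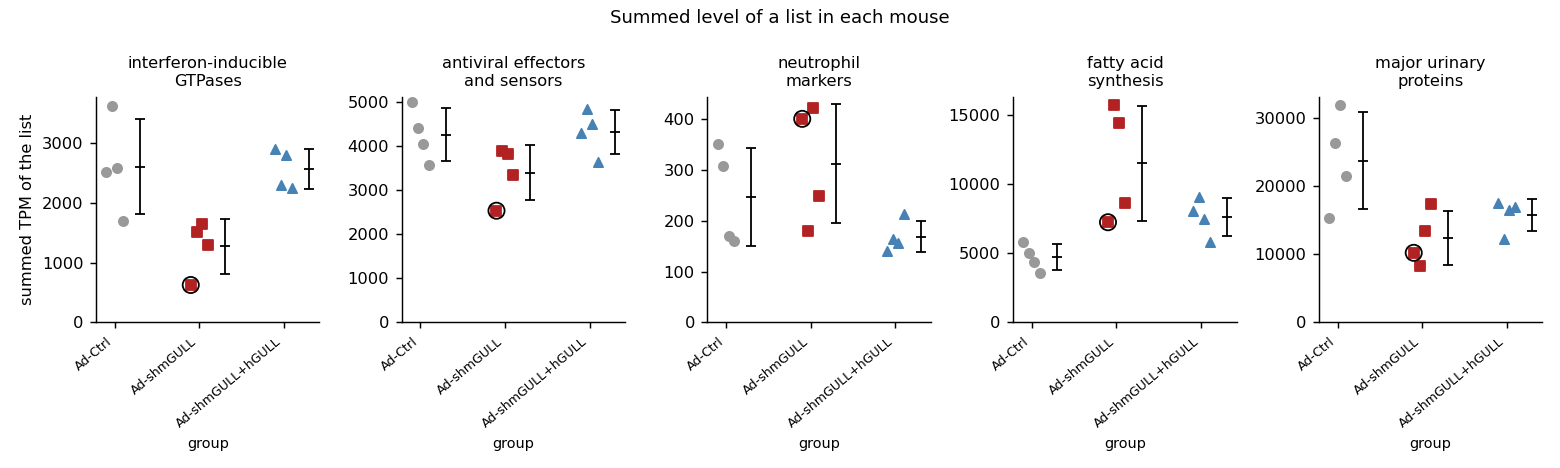
Summed TPM of 5 gene lists in each mouse (y axes from 0), with the mean and SD of 4 mice beside the points and Ad-shmGULL replicate 1 circled. The rescue and knockdown mice do not overlap for the GTPases, where the rescue lies at 2258 to 2909 TPM, and do overlap for the other 4 lists.

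Most genes of de novo fatty acid synthesis measured lower with hGULL, and some of them passed the threshold. Of 16 tested genes 15 had a negative difference, 5 (31.2%) were counted as lower and 0 as higher, and the median was -0.36. Fasn, the fatty acid synthase, measured 374, 902, 519 and 328 TPM in the knockdown and 285, 379, 240.1 and 188 TPM in the rescue, a difference of -0.89 ± 0.30 (adjusted p = 0.391 in limma). The groups overlapped in that Ad-shmGULL+hGULL replicate 2 exceeded Ad-shmGULL replicates 1 and 4, and an exact two-sided permutation test gave p = 0.0857. Acly, which makes cytosolic acetyl-CoA from citrate, measured 351, 859, 465 and 305 TPM against 295, 351, 241 and 234 TPM, a difference of -0.72 ± 0.26. Elovl6, which elongates palmitate, measured 142, 422, 187 and 176 TPM against 115, 167, 106 and 114 TPM, a difference of -0.77 ± 0.27. In all 3 genes Ad-shmGULL replicate 2 was the highest mouse. Without 1 mouse the call was lost by Elovl6 (-0.44 without knockdown mouse 2) and Acly (-0.41 without knockdown mouse 2 and -0.64 without rescue mouse 4).

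Thrsp, the lipogenesis-associated Spot 14 gene, measured 1089, 1586, 1117 and 907 TPM in the knockdown and 660.5, 949, 494 and 512 TPM in the rescue, a difference of -0.87 ± 0.28. Me1, the malic enzyme gene that supplies NADPH, differed by -0.58 ± 0.26 and was the 1 counted member of the 10 tested pentose phosphate and NADPH genes. It was not counted without several single mice (-0.34 to -0.63 without knockdown mouse 1 or 2, rescue mouse 3 or 4 or control mouse 2, 3 or 4), nor with the 8 compared mice alone, without the filter, without the trend or with array weights. Scd1, the most abundant desaturase, was not counted (3801, 9557, 10297 and 5393 TPM against 5087, 5736, 5246 and 3546 TPM), nor was Acaca, the gene for acetyl-CoA carboxylase (48.4, 100.1, 56.1 and 53.03 TPM against 50.2, 59.99, 42.5 and 41.8 TPM). In these genes except Scd1 the control mice lay below both groups, with 109.9 to 179 TPM of Fasn and 49.3 to 55.01 TPM of Elovl6. Scd1 was lowest among the knockdown mice in Ad-shmGULL replicate 1, and without it the difference was -0.75 and was counted. The count of lower members was 7 without Ad-shmGULL replicate 1, 2 without Ad-shmGULL replicate 2 and 3 without Ad-shmGULL+hGULL replicate 4. The genes of the factors that control lipogenesis gave 0 counted of 15, named after their values were seen: Srebf1 differed by -0.26 ± 0.16 and Mlxipl, which encodes ChREBP, by 0.10 ± 0.12. In the 14 promoters found for 13 of the fatty acid synthesis genes there was no ISRE or GAS match. The sterol element TCACNCCAC had no match in these letters, the E-box CACGTG was present in 2 and the CREB element TGACGTCA in 2. Among all promoters these last 3 motifs occurred in 1.24%, 7.15% and 1.79%, with both strands searched. A motif this rare can be missing from 14 promoters without setting them apart, and sites with other letters or outside the window were not searched. By chromatin immunoprecipitation the study reported SREBP1 at the Fasn, Acly and Elovl6 promoters, and less of it with hGULL or mGULL overexpression. Its figure shows this in mice overexpressing Crtc2, a design other than the knockdown and rescue compared here. Binding of SREBP1 was not tested here. A panel of 10 lipid and glucose genes was also followed by qPCR in this work. In the TPM values 3 of these 10 genes were counted as lower (Fasn, Acly and Elovl6) and 0 as higher, with a median of -0.37. By qPCR the study reported lower lipid synthesis and gluconeogenesis genes but higher beta-oxidation genes with hGULL. The median therefore pools genes reported in opposite directions. The panel's count was 1 without Ad-shmGULL replicate 2. The panel was picked by the study, so this count is no independent evidence of a direction.

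**Figure D5:**
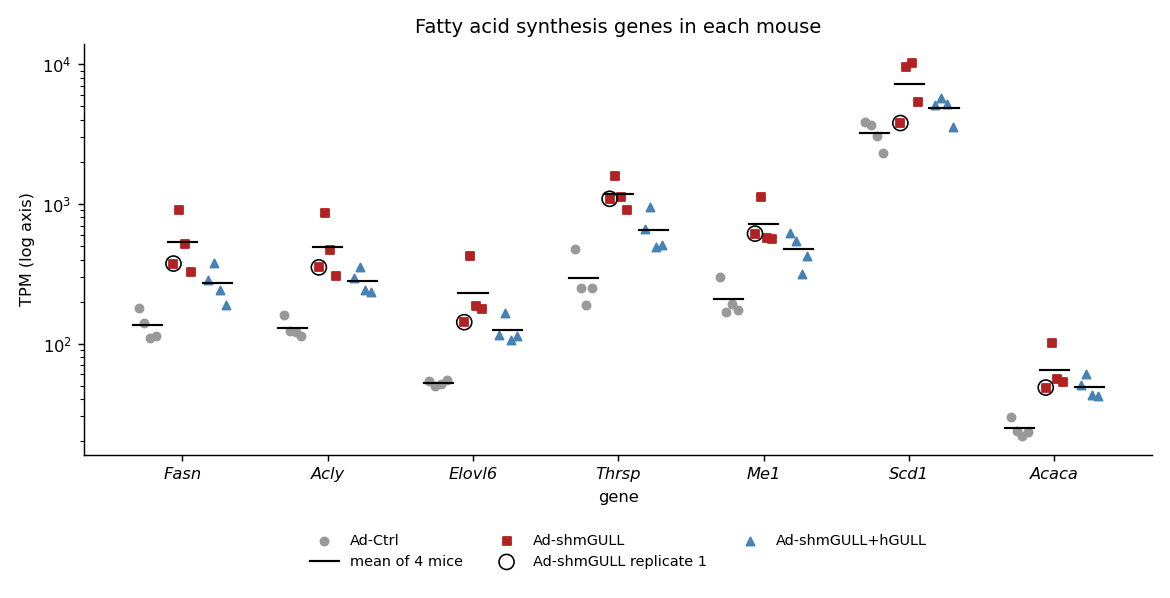
TPM on a log axis for 7 fatty acid synthesis genes in each of the 12 mice, with bars at the mean of 4 mice and Ad-shmGULL replicate 1 circled. The rescue means lie between those of Ad-Ctrl and Ad-shmGULL for each gene, and the rescue and knockdown mice overlap.

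Other lipid pathways showed few counted genes. Of 29 triglyceride synthesis and lipid droplet genes 0 were counted, though their differences ran from -0.83 to 0.46. Separate groups and small differences in opposite directions were seen in 2 of them. Pnpla2, the adipose triglyceride lipase, measured 78.8, 101, 101 and 113 TPM in the knockdown and 123, 122, 135 and 161 TPM in the rescue (0.46 ± 0.12), and Dgat2, which completes triglyceride synthesis, measured 581, 644, 584 and 630.3 TPM against 524, 534, 490.3 and 491 TPM (-0.26 ± 0.08). Of 21 mitochondrial beta-oxidation genes 0 were counted and 15 were lower. Cpt1a, the rate-limiting importer of fatty acids, was nevertheless higher in all 4 rescue mice (215, 209, 266 and 262 TPM against 287, 299, 298 and 296 TPM, a difference of 0.32 ± 0.09), and Eci2, an enoyl-CoA isomerase gene, differed by 0.21 ± 0.08. Of 30 peroxisomal and omega oxidation genes 2 were counted as lower. These were Acaa1b, a peroxisomal thiolase (3211, 2037, 2083 and 1749 TPM against 1683, 1408, 1374 and 1473 TPM, -0.58 ± 0.16), and Cyp4a14, a fatty acid omega-hydroxylase (1396, 682, 463 and 381 TPM against 403, 258, 205 and 357 TPM, -1.11 ± 0.44). The groups were separate for Acaa1b and overlapped for Cyp4a14. Both are known targets of PPARα, both were highest in Ad-shmGULL replicate 1, and neither was counted without that mouse (-0.40 and -0.74). The list's count was 4 without Ad-shmGULL replicate 4 and 1 without Ad-shmGULL replicate 2, Ad-shmGULL+hGULL replicate 2 or Ad-shmGULL+hGULL replicate 3. Over all mice left out, the call was lost by Cyp4a14 (-0.74 to -1.08 without knockdown mouse 1 or 2 or rescue mouse 2 or 3), and Pnpla2 was counted without 1 mouse (0.53 without knockdown mouse 4).

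Differences of 19 fatty acid uptake and binding genes ran from -0.64 to 0.74. Of them 1 was counted, the caveolin gene Cav1 (0.74 ± 0.33), with overlapping groups. It was not counted without several single mice (0.42 to 0.77 without knockdown mouse 1 or 3, rescue mouse 1, 2 or 4 or control mouse 4), nor with a pseudocount of 0.1, no filter, no trend, array weights, the replicate number as a block or rescaling without the 20 highest genes, and 1 member was counted as lower without knockdown mouse 1. Cholesterol synthesis and uptake gave 0 of 26, with 19 members lower and a median of -0.13; Soat2, which esterifies cholesterol, differed by 0.23 ± 0.09 with separate groups. Bile acid genes gave 1 of 24, Cyp7b1 of the alternative pathway (209, 206, 247 and 503 TPM against 367, 403, 444 and 474 TPM, 0.63 ± 0.24), where Ad-shmGULL replicate 4 lay above all 4 rescue mice. Without some mice Cyp7b1 was not counted (0.50 to 0.57 without knockdown mouse 1 or 2 or rescue mouse 4), and the bile acid count was 2 without knockdown mouse 3. Apolipoprotein and VLDL genes gave 0 of 22. Angptl8, an insulin-responsive inhibitor of lipoprotein lipase, ranged from 19.1 to 71.2 TPM in the knockdown and from 25.9 to 29.00 TPM in the rescue, and the scavenger receptor gene Scarb1 differed by 0.30 ± 0.13. Desaturases and elongases gave 0 of 12 and ketogenesis genes 0 of 15, the latter with differences down to -0.57. Angptl8 was counted without 1 mouse (-1.05 without knockdown mouse 4).

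No gene of glucose metabolism on these lists was counted. Of 18 gluconeogenic genes 0 were counted, with a median of 0.00. G6pc, glucose-6-phosphatase, measured 1180.1, 943, 821 and 937 TPM in the knockdown and 668, 833, 727 and 709.6 TPM in the rescue, a difference of -0.39 ± 0.12, with 1 rescue mouse above 1 knockdown mouse. Slc25a25, a mitochondrial ATP-magnesium carrier, was lower without overlap (-0.45 ± 0.13), and Pck1, which catalyzes the first committed step, was not counted (2377, 1630.0, 2196 and 3216 TPM against 1717, 2401, 3049 and 2914 TPM, 0.11 ± 0.23). Of 24 glycolytic and fructose genes 0 were counted, with differences from -0.36 to 0.54; the fructokinase gene Khk was lower in all rescue mice (-0.36 ± 0.12) and Pgam1, a phosphoglycerate mutase gene, higher in all (0.42 ± 0.12). Among 21 genes of the CREB, CRTC and salt-inducible kinase axis 0 were counted. Crem, a CREB-family modulator, was close: 5.02, 6.37, 5.78 and 6.31 TPM in the knockdown against 9.07, 8.48, 8.78 and 8.18 TPM in the rescue, a difference of 0.49 ± 0.10 (adjusted p = 0.287 in limma), with the control at 7.51 to 9.22 TPM. Atf1, also of this family, differed by 0.21 ± 0.07 with separate groups, and Crtc2 itself, named after its values were seen, by 0.07 ± 0.09. Insulin signalling gave 0 of 20. Genes counted when 1 mouse was left out were Slc25a25 (-0.54 without knockdown mouse 3), Pgam1 (0.53 without knockdown mouse 3) and Crem (0.51 to 0.53 without knockdown mouse 2 or 4 or rescue mouse 4).

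Several male-biased liver genes were higher in the rescue on average, with wide spread. Growth hormone pulses and androgens maintain these genes in male mice. Major urinary proteins had 7 of 21 members counted as higher, 20 with a positive difference and a median of 0.90, but the groups did not separate in any member. Mup12 measured 18.01, 22.5, 25.2 and 75.97 TPM in the knockdown and 113, 65.4, 84.5 and 77.99 TPM in the rescue (1.46 ± 0.52), and Mup10 9.16, 3.76, 7.62 and 13.3 TPM against 67.2, 30.8, 13.1 and 21.4 TPM (1.71 ± 0.68). Mup18 differed by 1.38 ± 0.54 and Mup2 by 1.24 ± 0.47, whereas the most abundant member, Mup3, differed by 0.28 ± 0.27 and was not counted. These genes are near-identical copies whose reads can be split in more than 1 way, and Ad-shmGULL replicate 4 was highest among the knockdown mice in Mup2, Mup10, Mup12 and Mup18. The count was 16 without that mouse and 11 without Ad-Ctrl replicate 3. It was 2 without Ad-shmGULL replicate 1 or Ad-shmGULL+hGULL replicate 4, 1 without Ad-shmGULL replicate 2 or Ad-shmGULL+hGULL replicate 1, 4 without Ad-shmGULL replicate 3 and 0 with array weights. Apart from Mup12, the named members lost the call without some mice: Mup2 (0.93 to 1.11 without knockdown mouse 1 or 2 or rescue mouse 1 or 4), Mup10 (1.30 to 1.66 without knockdown mouse 2 or rescue mouse 1 or 2) and Mup18 (1.06 to 1.25 without knockdown mouse 1, 2 or 3 or rescue mouse 1 or 4).

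Of 24 sex-biased and steroid-metabolizing enzymes, 3 were counted, all higher: Selenbp2, a selenium-binding protein gene (105, 107, 163 and 289.8 TPM against 225, 503, 398 and 303 TPM, 1.17 ± 0.30), the hydroxysteroid dehydrogenase gene Akr1c6 (0.72 ± 0.29) and Cyp7b1. The control range of Selenbp2 was 605 to 766 TPM, above all 8 mice of the comparison. The list's count was 6 without Ad-shmGULL replicate 4 and 1 without Ad-shmGULL replicate 1, Ad-shmGULL replicate 2 or Ad-shmGULL+hGULL replicate 4. Igf1, the growth hormone target, measured 72.1, 81.99, 124 and 108 TPM against 116, 141, 150.0 and 139.6 TPM (0.52 ± 0.16) and was the 1 counted gene of 15 in the growth hormone axis. Igf1 was not counted without some mice (0.40 to 0.48 without knockdown mouse 1 or 2 or rescue mouse 3). With median-of-ratios scaling, quantile normalization or rescaling without the 20 highest genes the axis had 0 genes higher and 1 lower, and it had 2 higher without Ad-shmGULL replicate 4 or Ad-shmGULL+hGULL replicate 1. Xenobiotic cytochrome P450 genes gave 0 of 37 and phase II transferases 1 of 45, the microsomal glutathione transferase Mgst1 (732, 844, 2097 and 951 TPM against 1736, 1637, 1920.3 and 2006 TPM, 0.79 ± 0.26), where Ad-shmGULL replicate 3 lay above the rescue. The transferase count was 3 without Ad-shmGULL replicate 2 or 3, 4 without Ad-shmGULL replicate 4 and 2 without Ad-Ctrl replicate 1 or Ad-shmGULL+hGULL replicate 2 or 3. Akr1c6 was not counted without several single mice (0.52 to 0.71 without knockdown mouse 1 or 2 or rescue mouse 1, 3 or 4) and differed by 1.08 without knockdown mouse 3.

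The smallest P among all genes belonged to Steap4, an acute phase metalloreductase. It measured 131, 175, 177 and 174 TPM in the knockdown and 272, 299, 252 and 265 TPM in the rescue, a difference of 0.73 ± 0.11 (adjusted p = 0.118 in limma), and the groups were separate, with the control between them at 192 to 227 TPM. The difference was 0.63 without Ad-shmGULL replicate 1. Among 28 acute phase genes, whose differences ran down to -0.67, 4 were counted, all higher. Besides Steap4 these were the protease inhibitor gene Serpina3g (0.76 ± 0.21), the apolipoprotein gene Saa4 (259, 272, 337 and 406 TPM against 492, 472, 428 and 445 TPM, 0.55 ± 0.15) and the orosomucoid gene Orm3 (0.82 ± 0.29), all with separate groups. Serpina3g and Orm3 have similar copies. Without Ad-shmGULL replicate 1 the list's count was 2. Complement and coagulation gave 1 of 40, C4a, annotated here as noncoding and similar to C4b (0.88 ± 0.22). Without some mice the call was lost by Saa4 (0.46 without knockdown mouse 1 and 0.48 without knockdown mouse 2) and Orm3 (0.58 without knockdown mouse 1 and 0.66 without rescue mouse 4). The acute phase list had 2 genes counted as lower without Ad-shmGULL replicate 3 and 1 without Ad-shmGULL+hGULL replicate 1 or 4. The complement count was 3 without Ad-shmGULL replicate 3 or 4 and 2 without Ad-shmGULL+hGULL replicate 1 or 4.

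Next came genes outside the immune lists. Trp53inp1, a p53 target that promotes autophagy and cell death, measured 84.8, 85.2, 76.4 and 102 TPM in the knockdown and 137, 126, 156 and 132 TPM in the rescue, a difference of 0.66 ± 0.10 (adjusted p = 0.118 in limma) that stayed at 0.65 without Ad-shmGULL replicate 1. It was the 1 counted gene of 23 in the p53 list, which had 3 higher and 1 lower without Ad-shmGULL replicate 2 and 2 without Ad-shmGULL+hGULL replicate 4. The long noncoding RNA gene C730036E19Rik measured 42.9, 44.2, 49.1 and 71.7 TPM against 87.04, 99.3, 99.7 and 106 TPM (0.93 ± 0.14). Larp4b, an RNA-binding protein gene, differed by 0.41 ± 0.07, under the fold required, and Ube2j1, a ubiquitin-conjugating enzyme of endoplasmic reticulum-associated degradation, by 0.53 ± 0.09. The membrane metalloproteinase gene Mmp14 differed by 0.51 ± 0.10. The other 4 of the 10 smallest P values belonged to processed pseudogenes, among them Gm8941 (0.83 ± 0.14) and Gm5451, whose knockdown values were all under 1 TPM (0.349, 0.255, 0 and 0.514 TPM against 1.86, 2.60, 1.60 and 2.21 TPM). Without 1 mouse, Ube2j1 (0.45 without knockdown mouse 1 and 0.49 without rescue mouse 4) and Mmp14 (0.43 without knockdown mouse 1 and 0.49 without rescue mouse 4) fell below the fold required.

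Stress lists gave scattered genes. Of 30 unfolded protein and integrated stress response genes 2 were counted, the endoplasmic reticulum cochaperone genes Dnajb9 (27.96, 45.2, 51.4 and 45.6 TPM against 64.7, 55.04, 58.1 and 72.4 TPM, 0.57 ± 0.16) and Sdf2l1 (0.75 ± 0.22). The NRF2 list gave 2 of 19, glutathione reductase Gsr (0.56 ± 0.19) and sulfiredoxin Srxn1 (0.74 ± 0.32). Those that lost the call were Dnajb9 (0.39 without knockdown mouse 1), Sdf2l1 (0.49 without knockdown mouse 2), Gsr (0.39 without knockdown mouse 1 and 0.50 without knockdown mouse 4) and Srxn1 (0.53 to 0.75 without knockdown mouse 1 or 4 or rescue mouse 1, 2 or 3). Heat shock proteins gave 0 of 15, with 14 positive. In the cell cycle list 39 of 40 members were positive with a median of 0.31, and 3 were counted. These were the repressor gene E2f8 (11.9, 19.2, 7.05 and 13.7 TPM against 18.2, 25.4, 15.5 and 23.4 TPM, 0.68 ± 0.25) and the replicative helicase subunits Mcm4 (0.56 ± 0.20) and Mcm5 (0.54 ± 0.23). The list's summed level ranged from 394 to 629 TPM in the knockdown, 469 to 763 TPM in the rescue and 247 to 492 TPM in the control. Its groups overlapped, and the count was 10 without Ad-shmGULL replicate 2, 5 without Ad-shmGULL+hGULL replicate 4, 1 without Ad-shmGULL replicate 1 or 4 and 0 without Ad-shmGULL+hGULL replicate 2. Immediate-early genes gave 1 of 18, Egr1 (0.82 ± 0.34). Of these, calls were lost by E2f8 (0.44 without knockdown mouse 3 and 0.58 without rescue mouse 2), Mcm4 (0.45 to 0.50 without knockdown mouse 1 or 4 or rescue mouse 1 or 2), Mcm5 (0.38 to 0.53 without knockdown mouse 1 or 4 or rescue mouse 2 or 3) and Egr1 (0.55 to 0.82 without knockdown mouse 1 or 2 or rescue mouse 2 or 3). The immediate-early count was 2 without Ad-shmGULL replicate 3 and 0 with median-of-ratios scaling or quantile normalization.

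Among pericentral Wnt target genes 2 of 20 were counted as lower, the neutral amino acid transporter gene Slc1a4 (4.58, 5.85, 4.89 and 4.17 TPM against 3.23, 3.45, 2.60 and 2.59 TPM, -0.56 ± 0.13, separate groups) and the transcription factor gene Sp5 (-0.55 ± 0.19). Calls were lost by Slc1a4 (-0.49 without knockdown mouse 2) and Sp5 (-0.42 without knockdown mouse 4 and -0.47 without rescue mouse 3).

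Other liver programs had 0 counted genes, and the members with the smallest P are named for each. Members with larger P reached larger differences, up to 0.92 among hepatocyte transcription factors, from -0.58 to 0.61 among cytochrome P450 genes and down to -0.54 among nuclear noncoding RNAs. In the circadian clock list (21 tested, median 0.03), the repressor gene Bhlhe40 differed by -0.41 ± 0.18 and Per2 by 0.28 ± 0.13. In urea cycle and amino acid breakdown (47, median 0.05), Kmo of the kynurenine pathway differed by 0.24 ± 0.10 and Ftcd of histidine breakdown by 0.18 ± 0.08. Among hepatocyte transcription factors (23, median 0.17), Rxra, the shared partner of the lipid-sensing nuclear receptors, differed by 0.24 ± 0.09 and Ppara by 0.23 ± 0.09. Oxidative phosphorylation (58, median 0.03) was led by Ndufs8 of complex I (0.43 ± 0.14) and Sdhd of complex II (0.24 ± 0.10). Autophagy and lysosome genes (30, median 0.08) were led by Atg5 (0.34 ± 0.10) and the cargo receptor gene Nbr1 (0.14 ± 0.06). Nuclear noncoding RNAs (12, median 0.04) were led by the snoRNA hosts Snhg1 (0.36 ± 0.11) and Gas5 (0.19 ± 0.09). The insulin list was led by the stress-induced Sesn2 (0.35 ± 0.14) and the kinase gene Gsk3b (0.21 ± 0.09). The heat shock list was led by the constitutive chaperone gene Hspa8 (0.25 ± 0.09) and its cochaperone gene Dnajb1 (0.26 ± 0.10), and the cytochrome P450 list by Cyp2c29 (-0.46 ± 0.20) and Cyp3a13 (0.29 ± 0.14). Each difference given for a named gene here was below 0.5 in size. Without 1 mouse, Cyp2c29 (-0.54 to -0.59 without knockdown mouse 1 or 3 or rescue mouse 1), Bhlhe40 (-0.52 without knockdown mouse 4 and -0.51 without rescue mouse 1) and Ndufs8 (0.60 without knockdown mouse 3) were counted. Of all 29 lists with 0 counted genes, 12 stayed at 0 whichever mouse was left out and 17 had 1 or 2 counted without some mouse.

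Over all 16537 tested genes, counted or not, groups were separate and higher in 880 (5.32%) and separate and lower in 163 (0.986%). The split between higher and lower moved with the scaling of the libraries, as given above. Of the 11077 genes with an average of 5 TPM or more, 105 were counted as higher with separate groups and 13 as lower. Among the protein-coding genes of the latter, Cyp26b1, which breaks down retinoic acid, was lowest relative to the knockdown, with 7.91, 6.61, 6.32 and 7.09 TPM in the knockdown and 1.64, 3.70, 2.26 and 5.52 TPM in the rescue (-0.98 ± 0.25, adjusted p = 0.32 in limma). The control range of 2.19 to 4.45 TPM overlapped the rescue alone. Cabyr, a calcium-binding sperm protein gene, differed by -0.84 ± 0.27, the transcription factor genes Olig1 and Klf1 by -0.75 ± 0.20 and -0.57 ± 0.19, the anchoring filament gene Lad1 by -0.75 ± 0.24 and the kallikrein gene Klk1b4 by -0.51 ± 0.20. The levels of these genes were low, the highest mean being that of Olig1 in the knockdown (13.3 ± 4.06 TPM). The thiolase gene Acaa1b (-0.58), given above at far higher levels, was also counted as lower with separate groups. Of all 13 the microRNA hairpin gene Mir1942 had the largest negative difference (-1.75 ± 0.63). Calls were lost by Klf1 (-0.47 without knockdown mouse 4 and -0.45 without rescue mouse 2), Klk1b4 (-0.38 to -0.45 without knockdown mouse 4 or rescue mouse 3 or 4) and Mir1942 (-1.19 without rescue mouse 2).

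Counts differed by gene type. Protein-coding genes gave 213 of 12186 (1.75%), long noncoding RNAs 49 of 1137 (4.31%), processed pseudogenes 94 of 1255 (7.49%) and microRNA hairpins 42 of 355 (11.8%). The median level was 15.4 TPM for tested protein-coding genes and 3.79 TPM for processed pseudogenes, and 277 of the 490 counted genes were not annotated as protein-coding. Of the protein-coding genes counted, 174 were higher and 39 lower.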

How the data were processed

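Liver RNA of 12 mice was sequenced from strand-specific libraries. The authors trimmed reads with fastp 0.23.2, checked them with FastQC 0.11.8, aligned them to GRCm38.p6 with HISAT2 2.2.1.0, counted them on GENCODE genes and deposited the values as TPM; the submitters' processing notes also list featureCounts and Subread 2.0. TPM keep no read depth, so no counting error could be given and precision comes from the spread between mice. How reads shared by near-identical copies were counted is not given in the sources used here.

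TPM were analysed as log2(TPM + 1) without further scaling, for the 16537 features with a mean of at least 1 TPM over the 8 compared mice. A fold change on this scale understates that of low genes. One limma 3.58.1 model (R 4.3.3) held the 3 groups of 4 mice, with moderated (empirical Bayes) variances that followed a trend with the mean, and Benjamini-Hochberg adjustment ran over all tested genes. The fold and P threshold followed the study's methods. Before use, the model was tested on simulated data with differences larger than any measured here, judged by adjusted p. That test does not cover the fold and P threshold. Single genes were also compared by exact permutation of 4 mice against 4, two-sided, for which 0.0286 is the smallest p. Tables and figures were made with Python 3.11.15, pandas 2.3.3 and matplotlib 3.10.9.

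Genes named were those with the largest differences in each direction (12 each) among genes past the threshold with separate groups and a mean of at least 5 TPM, the 10 smallest P values, the counted members of each list (up to 4 by P, or the 2 with the smallest P where none was counted), the genes the study measured by qPCR and those at the mGULL locus. Gene models known by a number, and leading members of marker lists with none counted, were partly given as counts. Members and lists were chosen with earlier results of these data known. Isg15, Ifit1, Irf7, Cxcl9, Cxcl10, Irgm1, Irgm2, Gbp8, S100a8, Nlrc5, Srebf1, Mlxipl, Crtc2 and Mup3 were named after their values were seen. Some measured genes are not reported here.

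Hairpin arms and the probes from which the RNAs were rebuilt came from the study's oligonucleotide list. Promoters came from RefSeq (GRCm38.p6). Alternatives covered the pseudocount, the filter, the scaling, the samples in the model, the trend, mouse weights, the replicate number as a block and each mouse left out; 2 more, protein-coding genes only and rescaling to protein-coding genes, were added after seeing the data. Same-numbered mice were not taken as pairs, since the labels give the numbers no shared meaning.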

Additional observations from a re-analysis of the deposited data

Results flagged for a closer look

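In groups of 4 mice, a value was picked out when the gap between the highest or lowest mouse and the nearest other exceeded Dixon's 95% critical share of the group's range (which chance exceeds in about 1 of 20 groups). This held in 16 of 272 groups (5.88%). Their values are given without an explanation, none having been tested.

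Ad-shmGULL replicate 1 was low for Steap4 (131 TPM against a median of 175 TPM in the other 3 mice, gap 0.953 of the range) and for the share of TPM on protein-coding genes (77.3% against 84.9%, gap 0.939). Ad-shmGULL replicate 2 was high for the lipogenic genes Elovl6 (422 against 176 TPM, gap 0.839), Me1 (1123 against 574 TPM, gap 0.915) and Acaca (100.1 against 53.03 TPM, gap 0.851) and for the helicase subunit Mcm4 (17.5 against 10.8 TPM, gap 0.849). Ad-shmGULL replicate 3 was high for Mgst1 (2097 against 844 TPM, gap 0.84) and Ndufs8 (99.3 against 61.9 TPM, gap 0.915). Ad-shmGULL replicate 4 was high for the male-biased genes Mup12 (76.0 against 22.5 TPM, gap 0.876), Mup18 (159 against 30.7 TPM, gap 0.92) and Cyp7b1 (503 against 209 TPM, gap 0.862).

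In the rescue, Ad-shmGULL+hGULL replicate 2 was high for Elovl6 (167 against 114 TPM, gap 0.851) and low for Nbr1 (159.5 against 164 TPM, gap 0.856). Ad-shmGULL+hGULL replicate 4 was low for Cxcl9 (111 against 151 TPM, gap 0.892) and Srebf1 (92.0 against 152 TPM, gap 0.858), and Ad-shmGULL+hGULL replicate 3 was high for Mlxipl (223 against 210.4 TPM, gap 0.847).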

How the results depend on the processing

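The 490 genes past the fold and P threshold became 242 when genes had to average 5 TPM and 232 among protein-coding genes, where fewer genes were tested. The other settings gave 409 to 590, apart from leaving out single mice, which gave 362 to 852, the last without Ad-shmGULL replicate 2. The 0 genes at an adjusted p under 0.05 became 1 with the 8 compared mice alone, and 0 to 2 when single mice were left out: 1 without Ad-Ctrl replicate 4, 1 without Ad-shmGULL replicate 3 and 2 without Ad-shmGULL replicate 4. With the replicate number as a block there were 512 genes and 0 at an adjusted p under 0.05, and 11 instead of 7 major urinary proteins were counted. Deviations of same-numbered mice correlated at -0.036 to 0.147 over genes. Ad-shmGULL replicates 2, 3 and 4 each correlated best with the rescue mouse of the same number (0.147, 0.099 and 0.040), and replicate 1 did not (-0.036). The same held for the rescue mice against the knockdown mice. The labels do not say what equal numbers share, and a shared batch was not tested. Scaling moved the median of all genes from 0.09 to 0.01 (median-of-ratios), 0.04 (without the 20 highest genes) or -0.0004 (quantile). The sign changed for 3 genes that were not counted: Crtc2 (-0.0215 with median-of-ratios scaling, -0.0338 with quantile normalization), Hsbp1 (-0.0316, -0.0145, and -0.0019 without the 20 highest genes) and Pck1 (-0.0129 with quantile normalization, -0.0246 with array weights, -0.0577 to 0.278 without single mice, the lowest without Ad-shmGULL replicate 2). The cause was not tested. Of the 78 named genes past the threshold, 46 stayed past it without Ad-shmGULL replicate 1 and all 78 kept their sign. Depth, unknown from TPM, limits features near 1 TPM most, and 277 of the 490 were not protein-coding.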
